A study of Mus musculus with 28 samples.

Results

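Livers of Aag null mice taken 48 h after methyl methanesulfonate (MMS) are described here, as 3 of the 28 arrays of the series, chosen by their labels. They were set against 4 arrays of untreated Aag null liver, 4 of Aag null liver 24 h after MMS and 2 of wild-type (WT) liver 48 h after MMS. All of these Aag null groups, controls included, lack the glycosylase. The Affymetrix MG-U74Av2 array was hybridised with biotin-labelled RNA of whole liver, and values are log2 signals. The labels give no strain, sex, age or MMS dose and do not say whether replicates are separate animals. P-values of the reported fits therefore measure only the spread between arrays within groups, pooled over all 28 arrays. The number of arrays limits the precision. In whole liver, fewer cells of a type and less RNA per cell cannot be told apart.

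MMS is an alkylating agent that adds methyl groups to DNA bases. Aag, encoded by Mpg, cuts out alkylated bases such as 3-methyladenine and so starts base excision repair, in which an endonuclease, a polymerase and a ligase finish the repair. The liver also makes bile acids and cholesterol, breaks down amino acids and conjugates reactive chemicals with glutathione. Some of the genes described belong to these functions, and many do not.

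The 4 untreated arrays were not alike. Hybridization controls, transcripts added to each sample, averaged 8.11 to 8.29 in the 48 h arrays, against 8.17 and 8.09 in untreated replicates 1 and 2 and 10.2 and 10.6 in untreated replicates 3 and 4. The Gapdh signal at the 3′ end minus that at the 5′ end, a sign of RNA quality, was -0.23 to -0.17 in the 48 h arrays, against -0.19 and 0.02 in untreated replicates 1 and 2 and 0.64 and 0.67 in replicates 3 and 4. Untreated replicate 3 and replicates 1 and 2 of the 24 h group also carried female-typical transcripts, with Cyp2b9 at 7.73 or above. Cyp2b9 was 3.30 to 3.78 in the 48 h arrays. Eif2s3y, a gene of the Y chromosome, read 2.58, 2.53 and 2.47 in those arrays in turn, but 3.66 to 3.85 at 48 h. Hsd3b5, a male-typical transcript, read 5.27, 3.50 and 2.94 there, but 7.87 to 8.35 at 48 h. By these transcripts the untreated and 24 h groups may each mix sexes, while the 48 h arrays look male. Changes from untreated liver were therefore computed against all 4 untreated arrays and again against untreated replicates 1 and 2 alone. The part of array quality and of these transcripts in the changes was not tested.

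Of 5487 genes tested, 50 (0.911%) passed an adjusted p of 0.05 by limma with Benjamini-Hochberg adjustment at 48 h against all 4 untreated arrays, 17 higher (0.31%) and 33 lower (0.601%). The genes that rose were led by Slc7a2, Cyp7a1 and Tat, and those that fell by Hmgcs1, Atf5 and H2-Ke6. This count rests on single arrays: it was 0 without untreated replicate 3, without 48 h replicate 2 or without 48 h replicate 3, 10 without untreated replicate 4, 23 without 48 h replicate 1 and 476 without untreated replicate 1. It was also 0 when the fit held these 7 arrays only, with 963 genes at an unadjusted p under 0.05 there and 930 (16.9%) in the fit over all arrays. With the values as deposited 70 genes were called, 48 higher and 22 lower, and with median centring 25, 4 higher and 21 lower, so the balance of rises and falls depends on the scaling.

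Against untreated replicates 1 and 2 alone, 14 genes (0.255%) were called, 7 higher and 7 lower (0.128% each), with 378 (6.89%) at an unadjusted p under 0.05. The count was 1 without 48 h replicate 3, 3 without 48 h replicate 2, 2 without untreated replicate 2 and 3 with the values as deposited. Of these, 5 were also called against all 4 arrays, which is 10% of the 50 and 35.7% of the 14: Cyp7a1 and Gsta2, higher, and Egr1, S100a10 and Crip2, lower. All 50 genes kept their sign against either pair of untreated arrays, and 12 had estimates against replicates 1 and 2 under 2/3 of their size against all 4. The 48 h and untreated arrays did not overlap for 49 of the 50, and Erp29 was the exception. Of all tested genes, 8.47% lay wholly above and 8.11% wholly below. The 50 were picked by their p-value on these same arrays. Separate groups and kept signs follow largely from that choice and are no added support. Of the 14 genes called against replicates 1 and 2, 10 had the same sign against replicates 3 and 4, and Dbp, Ctse, Gldc and Nnt had the opposite sign. These comparisons share the 48 h arrays and untreated replicates 1 and 2, so their agreement is not independent.

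**Figure D1:**
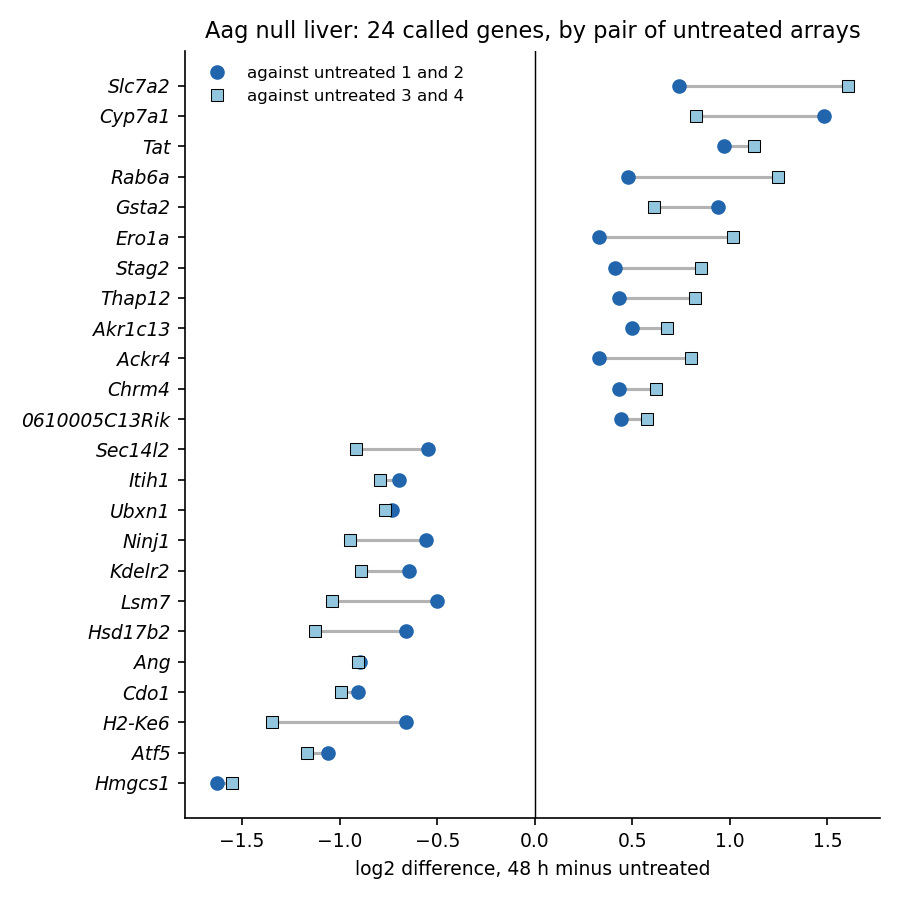
Log2 difference of Aag null liver 48 h after MMS minus untreated, for 24 called genes, the 12 that rose and the 12 that fell most. Circles are against untreated replicates 1 and 2 and squares against untreated replicates 3 and 4, and every gene lies on the same side of 0 by either pair, with Rab6a at 0.48 against replicates 1 and 2.

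**Figure D2:**
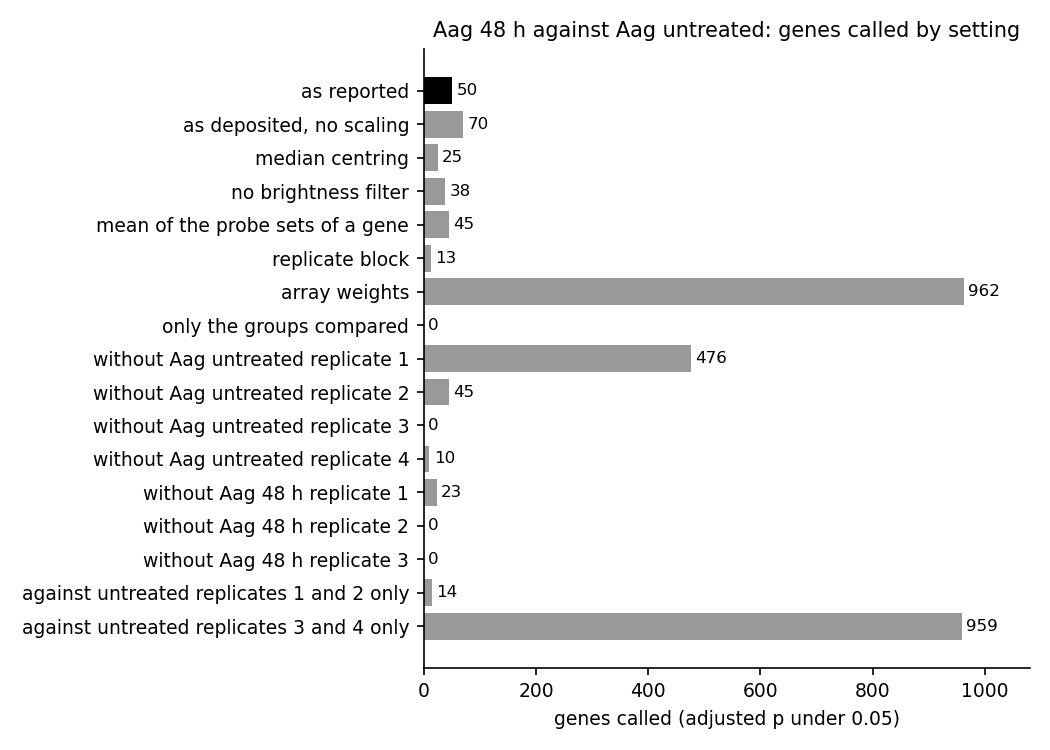
Number of genes called at 48 h against untreated Aag null liver (horizontal axis, adjusted p under 0.05) in the reported fit (black) and each alternative (grey). The count is 50 as reported, 0 in 4 alternatives that leave out an array or the other groups, and 959 against untreated replicates 3 and 4 only.

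Most cholesterol synthesis genes had lower mean signals in liver 48 h after MMS, and Hmgcs1 was the member that passed the test. Hmgcs1, which makes HMG-CoA for the mevalonate pathway, had log2 signals of 4.94, 4.42 and 5.34 at 48 h, against 6.52, 6.54, 6.71 and 6.19 in untreated liver. All 48 h arrays lay below all untreated ones. Hmgcs1 fell by 1.59 on the log2 scale (SE 0.39, limma adjusted p = 0.0474), the largest fall among genes called against all 4 arrays, and its difference from replicates 1 and 2 was -1.63 (SE 0.47, adjusted p = 0.19). Its adjusted p ran from 0.0209 to 0.268 over 16 alternatives, and it missed the threshold in 12 of them.

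Idi1, which isomerises isopentenyl diphosphate, had signals of 6.55, 6.69 and 7.73 at 48 h, against 7.96, 8.29, 8.58 and 8.04 in untreated liver. Its arrays did not overlap, and its difference of -1.23 (SE 0.31) did not pass (limma adjusted p = 0.0586). Fdps, which makes farnesyl diphosphate, differed by -1.10 against all 4 and -1.31 against replicates 1 and 2 (limma adjusted p = 0.0598 and 0.12). Sqle, squalene epoxidase, differed by -0.58 against all 4 and -0.45 against replicates 1 and 2, and Cyp51, the lanosterol demethylase, by -0.47 and -0.62, neither called. In Idi1, Fdps, Sqle and Cyp51 alike, 48 h replicate 3 was the highest of the 48 h arrays.

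Of 26 genes listed for cholesterol synthesis and uptake, 17 were on the array and 16 were tested. Hmgcs1 alone was called, beside 0.601% of all genes called lower. At an unadjusted p under 0.05, 6 of 16 were lower and 0 higher, where 8.26% of all genes were lower. The median difference of the 16 was -0.44, beside 0.01 for all genes tested, and 14 had a negative sign. Against replicates 1 and 2, 5 of 16 were lower at an unadjusted p under 0.05, beside 3.75% of all genes, the median was -0.42 and all 16 had a negative sign.

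**Figure D3:**
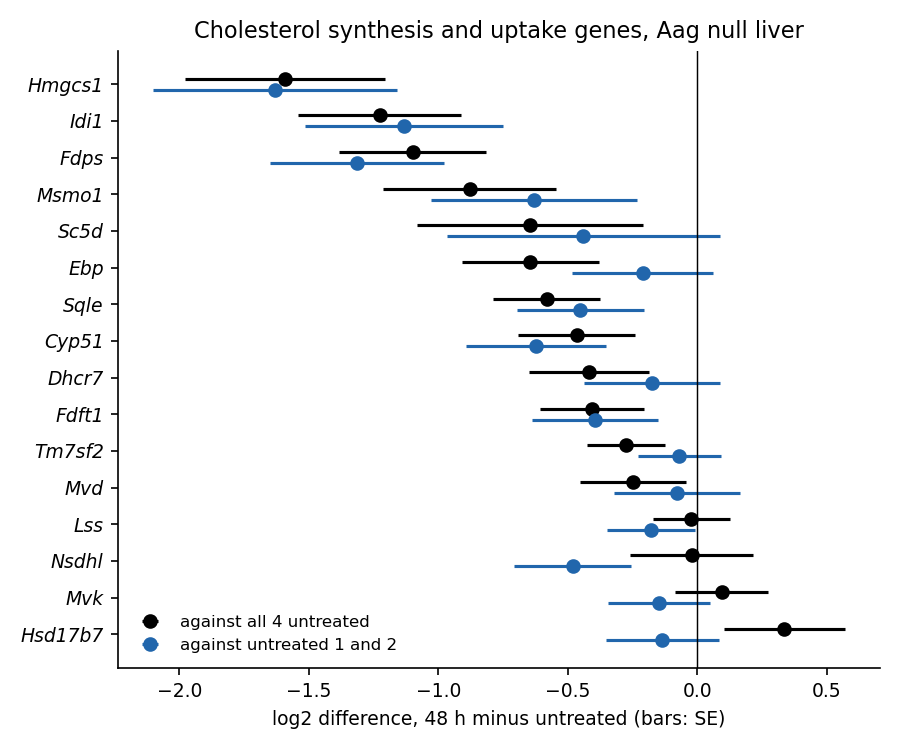
Log2 difference of Aag null liver 48 h after MMS minus untreated for the 16 tested cholesterol genes, with standard errors. Black is against all 4 untreated arrays and blue against untreated replicates 1 and 2. Hmgcs1, at -1.59 and -1.63, is lowest by either.

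RefSeq promoter sequences (GRCm38.p6) were available for 13 of the 16 genes. The 250 bases before the start are shown for Hmgcs1, Idi1 and Cyp51, on the strand of the gene, as examples of the genes that lay lower together. Capitals mark CCAAT on either strand (ATTGG when reversed) and TCACNCCAC, the core of the site bound by SREBP factors. They lie at chr13:119690101-119690350 (plus strand), chr13:8885356-8885605 (plus strand) and chr5:4104698-4104947 (minus strand).
Hmgcs1: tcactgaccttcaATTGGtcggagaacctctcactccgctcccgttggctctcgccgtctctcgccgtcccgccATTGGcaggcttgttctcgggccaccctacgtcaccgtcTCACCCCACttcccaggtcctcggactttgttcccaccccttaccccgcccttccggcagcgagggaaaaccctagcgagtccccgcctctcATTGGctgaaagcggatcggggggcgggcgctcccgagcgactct
Idi1: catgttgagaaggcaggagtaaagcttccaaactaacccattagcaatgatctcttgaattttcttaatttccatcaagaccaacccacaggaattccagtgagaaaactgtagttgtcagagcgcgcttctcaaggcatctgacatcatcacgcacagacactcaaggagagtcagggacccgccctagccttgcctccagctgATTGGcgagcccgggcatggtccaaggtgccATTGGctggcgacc
Cyp51: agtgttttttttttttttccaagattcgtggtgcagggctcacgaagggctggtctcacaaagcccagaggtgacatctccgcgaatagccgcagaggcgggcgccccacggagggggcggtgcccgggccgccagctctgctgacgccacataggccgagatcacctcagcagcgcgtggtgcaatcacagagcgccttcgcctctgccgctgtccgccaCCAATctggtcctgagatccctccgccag

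Hmgcs1 holds TCACNCCAC from 137 to 129 bases before the start and CCAAT reversed 3 times, Idi1 holds CCAAT reversed 2 times, and Cyp51 holds it once. CCAAT was found in 13 of the 15 promoter entries of the 13 genes, and in all 13 genes (Dhcr7 has it in 1 of 3 entries), where 35% of the 5624 entries of all tested genes and 33.8% of all 32851 entries hold it. TCACNCCAC was in 1 of the 15 entries and in 1.23% of entries of tested genes. The motifs CCAAT and TCACNCCAC, and CACCCCAC, which overlaps TCACNCCAC and was in 1 entry against 3.0%, were chosen after values were seen. Of the 8 other motifs searched, CACGTG was in 3 of the 15 entries against 8.62% of entries of tested genes, TGCNCNC in 5 against 52.1%, TGACNNNGC in 2 against 11.5%, and TTATGNAA, TTTGGCGC, TTTCCCGC, the nuclear receptor direct repeat with 1 spacer base and the glucocorticoid response element in 0. Both strands were searched, the comparison was not tested, and a match does not show that a factor binds.

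Slc7a2, Cyp7a1 and Tat had the largest rises among genes called against all 4 arrays. Cyp7a1, the cytochrome that starts the breakdown of cholesterol to bile acids, had signals of 4.22, 5.08 and 5.44 at 48 h, against 3.20, 3.67, 4.07 and 4.11 in untreated liver. The 48 h arrays lay above the untreated ones, with replicate 1 only just so. The rise was 1.15 (SE 0.28, limma adjusted p = 0.0438) against all 4 arrays and 1.48 (SE 0.31, adjusted p = 0.0456) against replicates 1 and 2. The call of Cyp7a1 against all 4 was lost in 10 of 16 alternatives, with limma adjusted p from 0.0311 to 0.26. The comparison with untreated replicates 3 and 4 only was among those 10. Of 17 tested bile acid genes, Cyp7a1 was the only one called in either comparison, beside 0.31% and 0.128% of all genes called higher. The median difference was 0.03 against all 4 and 0.18 against replicates 1 and 2.

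Slc7a2, a transporter of cationic amino acids, had signals of 7.22, 7.81 and 7.81 at 48 h, against 7.05, 6.70, 5.86 and 6.15 in untreated liver. Its lowest 48 h array lay just above untreated replicate 1. Slc7a2 rose by 1.17 (SE 0.25, limma adjusted p = 0.0282) against all 4, and its difference from replicates 1 and 2 was 0.74 (adjusted p = 0.343). It missed the threshold in 8 of 16 alternatives. Tat, tyrosine aminotransferase and a classic target of the glucocorticoid receptor, had signals of 10.07, 10.71 and 10.67 at 48 h, against 9.34, 9.69, 9.22 and 9.49 in untreated liver. No arrays overlapped. Tat rose by 1.05 (SE 0.24, limma adjusted p = 0.0353), with 0.97 against replicates 1 and 2 (adjusted p = 0.228). Tat missed the threshold in 10 of 16 alternatives. Of 22 tested glucocorticoid receptor targets, Tat was the only one called against all 4, beside 0.31% of all genes called higher. Against replicates 1 and 2, 0 were called. At an unadjusted p under 0.05, 5 were higher and 1 lower against all 4, beside 8.69% and 8.26% of all genes. Against replicates 1 and 2, 3 were higher and 0 lower, beside 3.13% and 3.75%. The medians were 0.10 and 0.11, and with median centring -0.07 and 0.04.

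Among conjugating enzymes, Gsta2, a glutathione transferase induced through NRF2, had signals of 7.31, 7.50 and 7.50 at 48 h, against 6.66, 6.33, 6.68 and 6.97 in untreated liver. The groups did not overlap. Gsta2 rose by 0.77 (SE 0.17, limma adjusted p = 0.0282) against all 4 and by 0.94 (SE 0.19, adjusted p = 0.0379) against replicates 1 and 2. Its call against all 4 was lost in 8 of 16 alternatives. Gstm3 and Gstm1, of the mu class, differed by 0.59 and 0.37, and by 0.44 and 0.39 against replicates 1 and 2, and were not called. Of 16 glutathione transferases, 1 was called higher, beside 0.31% of all genes. At an unadjusted p under 0.05, 4 were higher, beside 8.69% of all genes, with a median of 0.19. Against replicates 1 and 2, 5 were higher, beside 3.13% of all genes. Of 26 NRF2 targets, 1 was called higher in each comparison, beside 0.31% and 0.128% of all genes. At an unadjusted p under 0.05, 7 were higher and 1 lower, beside 8.69% and 8.26%, with a median of 0.20. Against replicates 1 and 2, 4 were higher and 1, Gsr at -0.38, lower, beside 3.13% and 3.75%, with a median of 0.12. Gsta2, Gstm3 and Gstm1 are on both lists, so their counts are not separate. With median centring the medians against all 4 were 0.02 for glutathione transferases and 0.05 for NRF2 targets, beside -0.05 for all genes. Akr1c13, an aldo-keto reductase, rose by 0.59 (SE 0.12, limma adjusted p = 0.0211) against all 4, and its difference from replicates 1 and 2 was 0.50 (adjusted p = 0.152).

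The other leading rises were Rab6a, a small GTPase of Golgi traffic, at 0.86, Ero1a, an oxidase of the endoplasmic reticulum, at 0.67, Stag2, a cohesin subunit, at 0.63, Thap12 at 0.63, Ackr4, an atypical chemokine receptor, at 0.57, Chrm4, a muscarinic receptor, at 0.53, and 0610005C13Rik at 0.51. Compared with replicates 1 and 2, Rab6a differed by 0.48, Ero1a by 0.33, Stag2 by 0.41, Thap12 by 0.43, Ackr4 by 0.33, Chrm4 by 0.43 and 0610005C13Rik by 0.44, none of them called. A second probe set of Thap12 had the opposite sign, at -0.03.

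**Figure D4:**
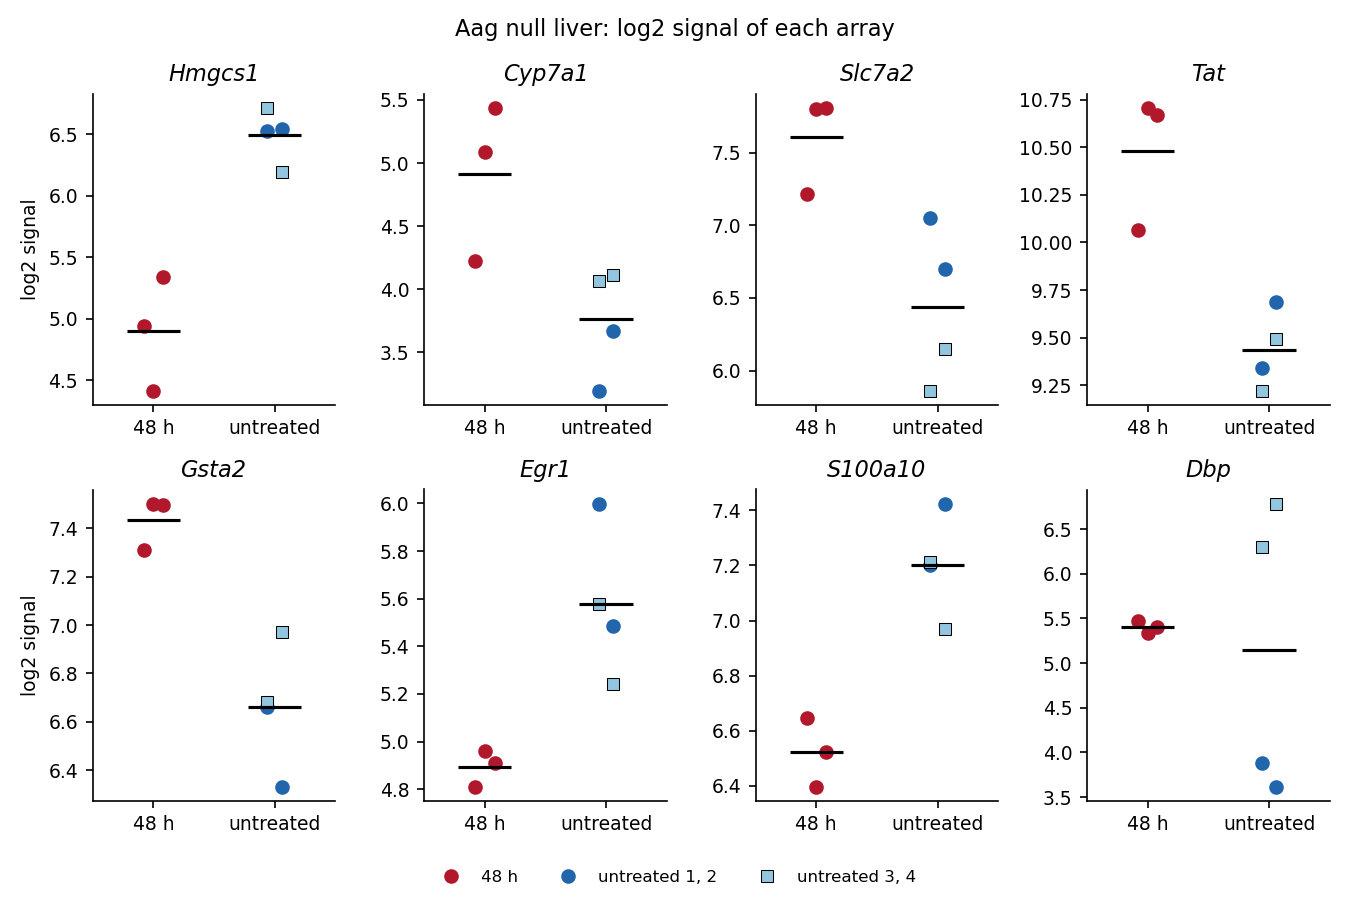
Log2 signal of each array for 8 genes, with 48 h at the left and untreated at the right of each panel and lines at group means. Circles are untreated replicates 1 and 2 and squares replicates 3 and 4. Dbp is the gene whose 48 h arrays, at 5.34 to 5.48, lie between the pairs of untreated arrays.

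Egr1, S100a10 and Crip2 fell against either set of controls. Egr1, a transcription factor induced by growth signals, had signals of 4.81, 4.96 and 4.91 at 48 h, against 6.00, 5.49, 5.58 and 5.24 in untreated liver. The groups did not overlap. Egr1 fell by 0.68 (SE 0.14, limma adjusted p = 0.0211) against all 4 and by 0.85 (SE 0.16, adjusted p = 0.0341) against replicates 1 and 2, and a second, dim probe set gave 0.08. Ier2, another immediate early gene, differed by -0.85, and by -1.01 against replicates 1 and 2, and was not called (limma adjusted p = 0.113 and 0.266). Of 18 tested immediate early genes, 1 was called, where 0.601% of all genes were called lower, and 5 were lower at an unadjusted p under 0.05, beside 8.26% of all genes, with a median of -0.12. Against replicates 1 and 2, 1 was called, beside 0.128% of all genes called lower. There, 3 of 18 were lower at an unadjusted p under 0.05, beside 3.75% of all genes.

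S100a10, a partner of annexin A2, had signals of 6.65, 6.40 and 6.53 at 48 h, against 7.20, 7.42, 7.21 and 6.97 in untreated liver. It fell by 0.68 (SE 0.13, limma adjusted p = 0.0208) and, against replicates 1 and 2, by 0.79 (adjusted p = 0.0379), while a second probe set gave 0.31. Crip2, a LIM domain protein, fell by 0.62 and 0.74 in the same comparisons. Actb, cytoplasmic actin, and Krt18, a keratin, differed by -1.27 and -0.58, and by -1.29 and -0.43 against replicates 1 and 2, and were not called. Their 48 h arrays lay below all untreated arrays. Of 22 tested tubulin and actin cytoskeleton genes, S100a10 alone was called, beside 0.601% of all genes called lower. The median was -0.05, with 14 negative and 8 positive signs. At an unadjusted p under 0.05, 5 were lower and 1 higher, beside 8.26% and 8.69% of all genes. Against replicates 1 and 2 the median was -0.12, with 4 lower and 0 higher, beside 3.75% and 3.13%. Tuba1a, a tubulin, differed by 0.57 and 0.42, with a second probe set at -0.16 against all 4.

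Atf5 and Cdo1 were among the largest falls. Atf5, a stress-responsive transcription factor, had signals of 4.83, 4.32 and 4.52 at 48 h, against 5.15, 6.09, 6.01 and 5.44 in untreated liver. It fell by 1.11 (SE 0.20, limma adjusted p = 0.0197), with -1.06 against replicates 1 and 2 (adjusted p = 0.0688). Cdo1, which oxidises cysteine, had signals of 8.36, 8.29 and 8.30 at 48 h, against 9.21, 9.24, 9.66 and 8.97 in untreated liver, and fell by 0.95 (SE 0.19, limma adjusted p = 0.0208), with -0.91 against replicates 1 and 2 (adjusted p = 0.107). In both genes the groups were separate.

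Ang, angiogenin, fell by 0.90, Hsd17b2, a steroid dehydrogenase, by 0.89, Itih1, a secreted inhibitor chain, by 0.74 and Sec14l2, a lipid-binding protein, by 0.73. H2-Ke6 fell by 1.00, Lsm7, of the RNA-binding Lsm ring, by 0.77, Kdelr2, a retrieval receptor of the secretory pathway, by 0.77, and Ninj1 and Ubxn1 by 0.75 each. Against replicates 1 and 2 the differences of these 9 genes lay between -0.90 for Ang and -0.50 for Lsm7, and none was called. Bhmt, which remethylates homocysteine, had signals of 9.34, 8.83 and 9.21 at 48 h, against 10.17, 10.12, 9.61 and 9.74 in untreated liver. Its difference of -0.78, and of -1.02 against replicates 1 and 2, did not pass (limma adjusted p = 0.0598 and 0.0657). A second probe set of Bhmt gave 0.12 and -0.13.

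Among immune and proteolytic genes, Psmb9, an immunoproteasome subunit, had signals of 4.88, 4.73 and 4.74 at 48 h, against 5.41, 5.27, 5.44 and 5.24 in untreated liver. It fell by 0.56 (SE 0.11, limma adjusted p = 0.0208). Isg15, an interferon-induced ubiquitin-like protein, fell by 0.61, and Psmd4, a proteasome subunit that binds ubiquitin chains, by 0.46. The differences from replicates 1 and 2 were -0.55 for Psmb9, -0.66 for Isg15 and -0.44 for Psmd4, none called. Psmb8 differed by -0.58 and -0.53 in these comparisons and was not called. Of 21 interferon and immunoproteasome genes, 2 were called lower, with a median of -0.12, and of 29 proteasome genes 1 was called lower, with a median of -0.26, where 0.601% of all genes were called lower. Against replicates 1 and 2 limma called 0 genes of either list, with medians of -0.21 and -0.12, and at an unadjusted p under 0.05 5 of 21 and 3 of 29 were lower, beside 3.75% of all genes. Of 10 tested Kupffer cell and macrophage markers, 0 were called by limma and 4 were lower at an unadjusted p under 0.05, beside 8.26% of all genes, with a median of -0.29. Set against replicates 1 and 2, 1 of 10 was lower at an unadjusted p under 0.05, beside 3.75% of all genes, with a median of -0.21. Mean levels of those markers were 5.01 to 5.16 at 48 h, against 5.20 to 5.66 in untreated liver, and hepatocyte markers averaged 9.93 to 9.98 at 48 h and 9.74 to 9.97 in untreated liver. The part of macrophage number in the immune genes was not tested.

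Other genes depended on which untreated arrays were used, the clock gene Dbp first among them. Dbp, a clock-controlled transcription factor, had signals of 5.48, 5.34 and 5.40 at 48 h, against 3.88 and 3.62 in untreated replicates 1 and 2 and 6.30 and 6.79 in replicates 3 and 4. It rose by 1.66 (SE 0.21, limma adjusted p = 0.000637) against replicates 1 and 2, and its difference from all 4 was 0.26 (SE 0.48, adjusted p = 0.816). Its call against replicates 1 and 2 held in all 12 alternatives run for it, none of which used replicates 3 and 4 as the control. Ctse, cathepsin E, fell by 1.71 against replicates 1 and 2 (limma adjusted p = 0.00702). Its 48 h arrays, at 6.40, 6.28 and 5.97, overlapped replicates 3 and 4, at 5.84 and 6.06. Against replicates 1 and 2 another bright probe set of Ctse gave -1.89 and a dim one 0.14. Cyp2b10, a cytochrome induced by phenobarbital-like compounds, rose by 1.30, Upp2, a uridine phosphorylase, by 1.26, Ngef by 0.78 and Slc5a6, a vitamin transporter, by 0.56 against replicates 1 and 2. Gldc, of the glycine cleavage system, fell, with a difference of -1.23, as did Nnt, a mitochondrial transhydrogenase, at -1.08 and Ap2a2, an adaptor subunit, at -0.63. None of these 7 was called against all 4 arrays, where the differences were 0.77 for Cyp2b10, 0.67 for Upp2, 0.53 for Ngef, 0.39 for Slc5a6, -0.52 for Gldc, -0.45 for Nnt and -0.42 for Ap2a2.

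Of 14 tested clock genes, 7 were higher at an unadjusted p under 0.05 against replicates 1 and 2, beside 3.13% of all genes. Against all 4, 3 were higher, beside 8.69% of all genes. Usp2 differed by 0.98 and Nampt by 1.21 against replicates 1 and 2 (limma adjusted p = 0.0621 and 0.0761), and by 0.37 and 0.51 against all 4. Of 29 PPARalpha targets, 0 were called. Against replicates 1 and 2, 9 were higher at an unadjusted p under 0.05, beside 3.13% of all genes, with a median of 0.12. Against all 4, 2 were higher, beside 8.69% of all genes, with a median of -0.11. Cyp4a14, a fatty acid hydroxylase, had signals of 4.76, 6.47 and 6.93 at 48 h, against 3.83 and 3.45 in untreated replicates 1 and 2 and 7.94 and 7.03 in replicates 3 and 4. Its 48 h arrays lay between the pairs.

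No tested gene of the p53 and base excision repair lists was called at 48 h. Mpg was dim, at 2.31, 2.35 and 2.49 at 48 h, against 2.40, 2.33, 2.35 and 2.30 in untreated Aag null liver, and was not tested. No source used here says if the Mpg probes fall inside the deletion, so these values do not check the genotype. Cdkn1a, the p21 cell cycle inhibitor, had signals of 6.39, 6.22 and 6.38 at 48 h, against 6.61, 6.15, 6.19 and 6.17 in untreated liver. The groups overlapped, and the difference was 0.05 (SE 0.16, limma adjusted p = 0.907). Mdm2, which marks p53 for degradation, differed by 0.07, Parp1, a sensor of DNA breaks, by -0.27, the repair scaffold Xrcc1 by -0.09 and Apex1, the endonuclease that cuts abasic sites, by -0.14. By the probe sets tested, these 5 genes differed from replicates 1 and 2 by -0.33 for Parp1 to -0.01 for Mdm2, none called. Second probe sets gave 0.33 for Cdkn1a and -0.36 for Xrcc1 against all untreated arrays. Against replicates 1 and 2 they gave 0.12 and -0.19, where the tested Cdkn1a probe set gave -0.05. Of 13 tested p53 targets and 10 base excision and alkylation repair genes, 0 were called by limma, and 0 passed an unadjusted p of 0.05 in either direction, beside 16.9% of all genes. Ccng1, Mgmt and Polb were too dim to be tested, and Bax and Gdf15 were not analysed here.

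Of 45 gene lists, 30 held no called gene in either comparison with untreated liver. Their medians against all 4 arrays ran from -0.29 for Kupffer cell and macrophage markers to 0.31 for metallothioneins and metal response genes. The 14 tested genes of replication licensing had a median of 0.00, the 15 of cyclins and mitosis 0.09 and the 17 heat shock proteins 0.00, with none called. Of the 15 genes of cyclins and mitosis, 12 had a positive and 3 a negative sign against all 4 arrays. Against replicates 1 and 2, 10 were positive and 5 negative. At an unadjusted p under 0.05, 2 were higher and 1 lower against all 4, and 0 higher and 1 lower against replicates 1 and 2. Cks2, a subunit of cyclin-dependent kinases, went against most of this list. It had signals of 4.63, 4.22 and 4.10 at 48 h, against 4.97, 5.17, 5.01 and 5.25 in untreated liver. Its difference of -0.79, and of -0.76 against replicates 1 and 2, did not pass (limma adjusted p = 0.0952 and 0.444). Metallothionein Mt1 had signals of 8.49, 8.08 and 6.88 at 48 h, against 6.62 and 6.31 in untreated replicates 1 and 2 and 9.02 and 8.10 in replicates 3 and 4. Its 48 h arrays lay above the first pair and overlapped the second. Of 20 apolipoprotein genes and 44 respiratory chain genes 0 were called, with medians of -0.19 and -0.16 against all 4 arrays and -0.15 and 0.02 against replicates 1 and 2. Of the 20 apolipoprotein genes, 14 had a negative sign against all 4 and 15 against replicates 1 and 2. At an unadjusted p under 0.05, 4 were lower and 1 higher against all 4, beside 8.26% and 8.69% of all genes. Against replicates 1 and 2, 3 were lower and 1 higher, beside 3.75% and 3.13%. Apoc1 and Apoa4 differed by -0.47 and -0.75 against all 4. Apob, of very low density lipoprotein, differed by 0.54 and 1.05 in these comparisons, and Abca1, a cholesterol exporter, by 1.23 and 0.43. None of these was called.

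Between 48 h and 24 h after MMS in Aag null liver, 16 genes (0.292%) were called by limma, 2 higher (0.0364%) and 14 lower (0.255%) at 48 h, with 490 (8.93%) at an unadjusted p under 0.05. Grhpr, which reduces glyoxylate, had signals of 8.37, 8.54 and 8.14 at 48 h, against 7.46, 7.29, 7.95 and 7.82 at 24 h. It was higher at 48 h by 0.72 (SE 0.14, adjusted p = 0.0332). The 48 h level overlapped untreated liver, at 8.48, 8.42, 8.53 and 8.63. Akr1c13 was higher by 0.56, and the largest falls were Lsr, a lipoprotein receptor, at -0.81, Atp5e, an ATP synthase subunit, at -0.79, Pex6, of peroxisome import, at -0.76, Rex1bd at -0.73 and Hgd, of tyrosine breakdown, at -0.71. Psmb9 was lower at 48 h by 0.63, at 4.88, 4.73 and 4.74, against 5.37, 5.45, 5.51 and 5.33 at 24 h. The count was 0 without 48 h replicate 2 or 3 and without 24 h replicate 1, 2 or 3, and 0 without the female-typical 24 h arrays, 7 without 24 h replicate 4 and 10 without 48 h replicate 1. Pancreas markers averaged 5.20 to 5.24 in the 48 h arrays, against 6.34 in 24 h replicate 2 and 5.06 to 5.11 in the other 24 h arrays, and their part in these calls was not tested beyond leaving that array out.

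**Figure D5:**
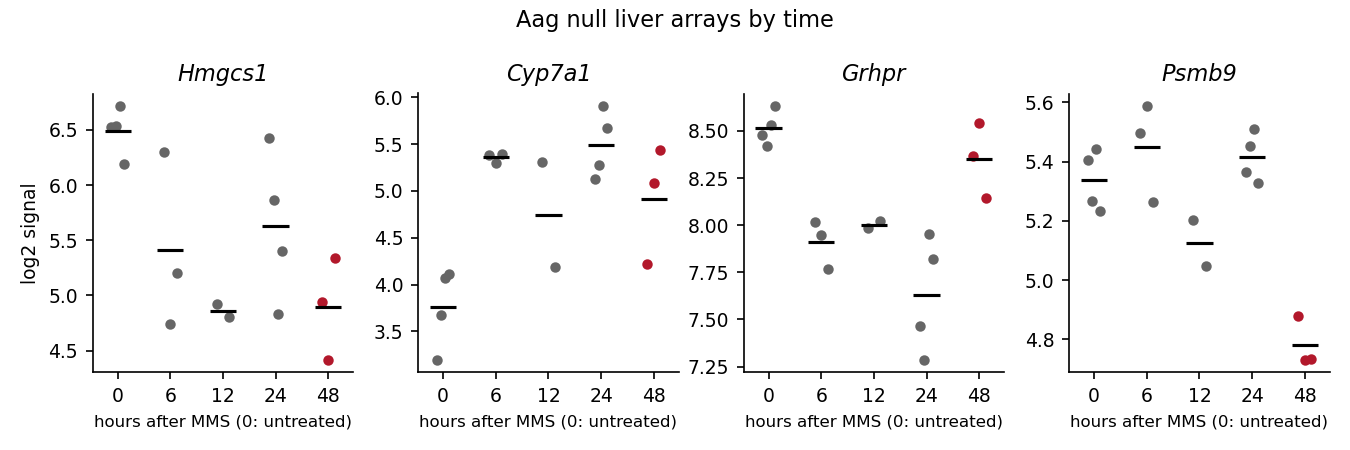
Log2 signal of each Aag null array for 4 genes, untreated (0) and 6, 12, 24 and 48 h after MMS, with lines at group means and 48 h in red. There are 3 arrays at 6 h and 2 at 12 h. Psmb9 is below all other groups at 48 h, at 4.73 to 4.88, and Grhpr at 48 h lies above the 24 h arrays.

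Between Aag null and WT liver at 48 h, 0 genes (0%) were called by limma, with 194 (3.54%) at an unadjusted p under 0.05. Hmgcs1 was 4.94, 4.42 and 5.34 in Aag null liver and 4.89 and 6.16 in WT liver. WT replicate 1 lay among the Aag null arrays and WT replicate 2 above them, and the difference was -0.62 (SE 0.46). Cyp7a1 was 4.22, 5.08 and 5.44 in Aag null liver and 4.76 and 4.89 in WT liver, with a difference of 0.09 (SE 0.33). With 2 WT arrays, a count of 0 does not show that the genotypes were alike.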

How the data were processed

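The 28 arrays were deposited as 1 table of log2 values per probe set, made by the authors. The unit was inferred from the values, 0.689 to 13.16, and no source used here describes the probe summary or scaling before deposit. Of 12488 probe sets, 66 controls were left out. The other 12422 were quantile normalized, since array medians spanned 0.215, above the limit of 0.1. Symbols came from the platform annotation: 10833 probe sets had 1 symbol, 396 several and 1193 none. The brightest probe set per gene was kept, and 5487 of 8251 genes, those brighter than the median of 2 or more arrays, were tested with limma 3.58.1 in R 4.3.3 (a mean for each group, all arrays in the fit, moderated test with trend, 18 residual degrees of freedom). For untreated replicates 1 and 2, replicates 3 and 4 formed a group of their own. Figures used Python and matplotlib. The pipeline was tested on simulated data.

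Groups and replicate numbers came from sample titles. The labels conflict here: the descriptions of Aag 48 h replicates 2 and 3 both say replicate 1, so the numbers in this group, and any block or pairing built on them, are uncertain. The values of the 3 arrays differ from each other (correlations of 0.9861 to 0.9905). The rule named Mpg, the 12 largest rises and falls called against all untreated arrays, up to 10 each called against replicates 1 and 2, up to 5 each for the other comparisons, 10 damage-response genes, and, for each list described, called members and up to 4 members with the smallest p. The smallest p was taken in either comparison with untreated liver, and for single list genes the alternatives were run in the comparison with the smaller p. The list genes printed were picked from those after their values were seen. Members, the 45 lists and rules were chosen with earlier results of these data known, so no list count is independent support. Alternatives were no scaling, median centring, no brightness filter, mean of probe sets, replicate block, array weights, a fit on the compared groups alone, and leaving out each array. Untreated replicates 3 and 4 only was added after seeing the data.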

Additional observations from a re-analysis of the deposited data

Results flagged for a closer look

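In 147 checks of 1 gene in 1 group of 4 arrays, 9 had 1 array apart from the other three by Dixon's test, and chance alone gives about 1 in 20. In untreated Aag null liver, replicate 3 stood apart at 7.65 for 0610005C13Rik (others 7.95 or above), at 11.3 for Ahsg (others 10.9) and at 10.99 for Apoc1 (others 10.7 to 10.8). Replicate 1 stood apart at 6.61 for Cdkn1a (others 6.15 to 6.19) and at 5.51 for Taf10 (others 6.19 to 6.27). Replicate 2 stood apart at 5.38 for Psmb8 and replicate 4 at 6.33 for Cd74 (others 7.05 to 7.06). At 24 h, replicate 1 stood apart at 7.82 for Hint2 and replicate 2 at 7.56 for Atp5e.

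For 16 genes the 48 h level differed from the 24 h level by limma (adjusted p 0.0298 to 0.0493), with 48 h minus 24 h differences of 0.56 for Akr1c13 and 0.72 for Grhpr. The lower ones were -0.64 for Apoc1, -0.79 for Atp5e, -0.57 for Gamt, -0.56 for Gcgr, -0.71 for Hgd, -0.64 for Hint2, -0.67 for Hpn and -0.81 for Lsr. The others were -0.76 for Pex6, -0.63 for Prodh2, -0.63 for Psmb9, -0.73 for Rex1bd, -0.69 for Slc39a1 and -0.71 for Tns2. Second probe sets of Gamt and Slc39a1 had the opposite sign against untreated liver, and their differences from 24 h were not computed on their own.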

How the results depend on the processing

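List medians in the text are from quantile normalized values unless said otherwise, and they moved with the scaling. With median centring, medians against all 4 untreated arrays were 0.10 for metallothioneins and metal response and -0.15 for bile acid genes. They were -0.39 for Kupffer cell and macrophage markers and -0.51 for cholesterol genes there, beside -0.05 for all genes tested. The counts of called genes moved widely. Of 2013 alternative values for 136 single-gene results, 1268 kept direction and side of the threshold, 654 lost the call, 87 gained it and 4 reversed. These alternatives set no gene named against replicates 1 and 2 against replicates 3 and 4, where 10 of the 14 called genes had the same sign. The reversed values were -0.029 and -0.053 for Cdkn1a with median centring and against untreated replicates 1 and 2 only, and -0.0012 and -0.0082 for Mdm2 without untreated replicate 3 and against replicates 1 and 2 only. None of those was called, and leaving out each array gave -0.0012 to 0.12 for Mdm2. Against all untreated arrays (50 called), the count was 25 with median centring, 962 with array weights, 0 with only the groups compared, 14 against replicates 1 and 2 only, 959 against replicates 3 and 4 only, and 0 to 476 leaving out each array. Against replicates 1 and 2 (14 called), it was 3 as deposited, 4 with median centring, 114 with array weights, 34 with only the groups compared and 1 to 10 leaving out each array. Against 24 h (16 called), it was 3 as deposited, 3 with median centring, 9 with no brightness filter, 975 with array weights, 512 with only the groups compared, 0 without the female-typical 24 h arrays and 0 to 10 leaving out each array. Against WT (0 called) it was 0 to 1 leaving out each array. The array weights did not converge in 4 fits, so their counts are not reliable. The cause of these moves was not tested.

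With replicate number as a block the counts were 13 against all untreated arrays, 3 against replicates 1 and 2 and 1 against 24 h. Same-numbered arrays did not deviate together (correlations of 0.06, -0.10 and -0.001), and the descriptions conflict with the numbers of the 48 h arrays, so the numbers were taken as not pairing the samples.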
